A study of Arabidopsis thaliana with 12 samples.

Results

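The regions described here are places inside protein-coding genes where a tagged DELLA protein was enriched in Arabidopsis inflorescences. A region was a merged interval on the nuclear chromosomes that held a peak of both gai-YPet lists and touched no peak of either list from untagged plants, and its summit was the mean position of the highest peak of each list. It was kept when this summit lay between the ends of an annotated protein-coding gene. The rule kept 1906 of 5755 nuclear regions (33.1%). The members were thus chosen by their gai-YPet peaks, and their strength in gai-YPet is given as a description only.

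Chromatin immunoprecipitation and sequencing (ChIP-seq) used an antibody to GFP, which recognises the tag. There were 3 genotypes, all in the Landsberg erecta (Ler) background. In gai-YPet cuc2-1, plants carried the transgene pGAI:gai∆17-3xYPet and the cuc2-1 mutation. In gai-YPet they carried the transgene alone, and Ler plants carried no transgene and measured the background of the antibody. The GAI promoter drives the transgene, whose product is GAI without 17 residues, joined to a yellow fluorescent protein. Nothing in the labels removes the resident GAI gene. Inflorescences came from the main stem of plants kept at 22 °C under a day of 16 h and a night of 8 h, and open flowers had been taken off. Each genotype had 2 biological replicates with 1 peak list each. The lists held 8193 and 3666 peaks in gai-YPet cuc2-1, 7042 and 11289 in gai-YPet, and 234 and 406 in Ler, and the read depth behind them is unknown because they give no read counts.

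DELLA proteins such as GAI repress growth when gibberellin is low. They have no DNA-binding domain of their own that is known to place them on genes, and reach chromatin through transcription factors, among them INDETERMINATE DOMAIN zinc fingers. Gibberellin leads to their destruction, and forms without the DELLA motif resist it. CUC2 is a NAC transcription factor of organ boundaries, including those of the placenta where ovules form, and gai-YPet cuc2-1 asks whether the tagged protein still occupies chromatin when CUC2 is impaired.

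Inside genes the tagged protein was found mostly close to an end of the gene. The median distance from summit to nearer gene edge was 202.5 bp, the middle 50% of regions lay between 86 and 675 bp, and the largest such distance was 3496 bp. Of the 1906 regions, 1334 (70.0%) lay within 500 bp of an edge, although only 33.5% of the bases of the host genes lie there. The other 572 (30.0%) were deep, meaning 500 bp or more from either edge. The gene table gives neither strand nor exons, so the start and the end of a gene, and exons and introns, cannot be told apart here.

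The density of regions did not step at the gene edge but fell gradually inside it. Summits numbered 112 per Mb in the first 100 bp inside genes, 72.6 per Mb in the next 100 bp, 43.3 in the next and 22.2 in the next, and 12.1 per Mb at 400 to 500 bp. In the 100 bp just outside the edge there were 114 per Mb. Density was higher again farther in, with 19.9 per Mb at 1100 to 1200 bp from the edge. No test was made of these densities, because the regions come from the same libraries and are not replicates.

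**Figure D1:**
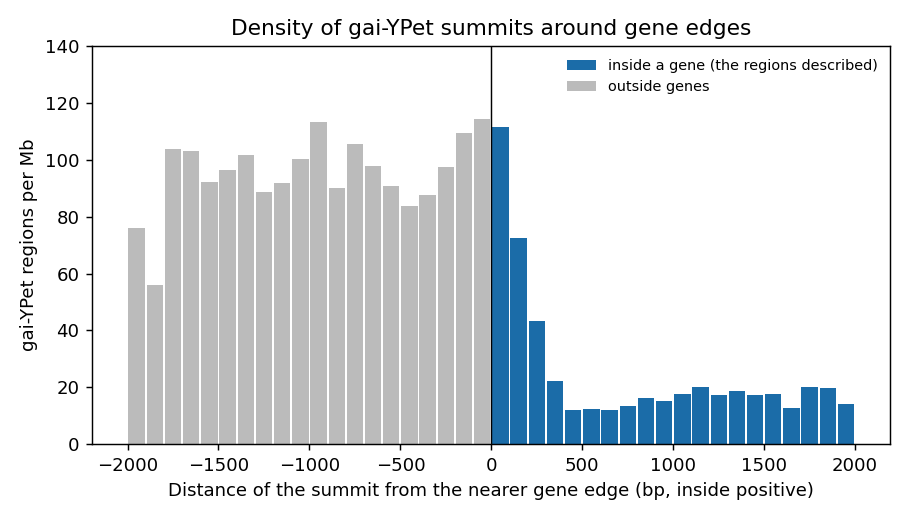
Number of gai-YPet regions per Mb of sequence (vertical axis) by distance of the summit from the nearer gene edge in bp (horizontal axis, positive inside genes), in bins of 100 bp, with blue bars for regions inside genes and grey bars for regions outside. The blue bars drop from 112 per Mb at the edge to 12.1 per Mb at 400 to 500 bp.

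Because the rule cuts at the gene edge, regions just inside and just outside it were set side by side. There were 268 regions up to 50 bp inside an edge and 248 up to 50 bp outside. Their median folds were 3.25 and 3.296 inside and 3.18 and 3.23 outside in gai-YPet replicates 1 and 2. The 3 regions nearest to the edge on the inside, all at 0 bp, were in MEE69 (folds of 5.36 and 4.73), AT4G09500 (5.29 and 5.08) and FLS2, the flagellin receptor (4.17 and 4.35). On the outside the nearest were beside AT3G28040 at 1 bp (5.38 and 5.08), UP6 at 1 bp (2.55 and 1.68) and CYP91A2 at 2 bp (2.65 and 2.76). All folds here are the authors' own enrichment of a peak over its background and are used to describe peaks within a list.

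Many of the regions reached beyond the gene. The interval lay wholly inside the gene for 690 (36.2%), crossed 1 edge for 1181 (62.0%) and covered the whole gene for 35 (1.84%). For 598 regions (31.4%) a further protein-coding gene that did not hold the summit lay within 1000 bp of it, and for 33 (1.73%) the summit lay in 2 genes at once. The deep regions with a summit in 1 gene and no further gene that near numbered 495, and for them the host is the only protein-coding gene in that window.

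The 1906 regions lay in 1774 genes, which is 6.46% of the 27444 nuclear protein-coding genes. Of these hosts, 1613 held 1 region, 157 held 2 and 4 held 3. Host genes were longer than genes in general, with a median length of 2753 bp against 2078 bp. The share of genes that held a region was 1.80% below 1000 bp, 4.41% at 1000 to 1999 bp and 11.4% at 4000 to 5999 bp, but 6.70% from 6000 bp. Longer genes also hold more bases. Per Mb of gene, the same classes held 25.1, 30.1, 34.2, 34.8, 26.8 and 9.05 regions in that order. A further region outside the gene but within 1000 bp of it was found for 345 hosts (19.4%), against 2636 of the 25670 genes that were not hosts (10.3%).

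The 4 genes with 3 regions show how members of the same gene differ. ANL2, a homeodomain gene of the epidermis, had a deep region, in TAIR10 coordinates chromosome 4 from 299858 to 300869, where folds were 8.18 and 5.53 in gai-YPet cuc2-1 and 8.50 and 5.20 in gai-YPet. Its other regions lay 23 and 185 bp from an edge, with gai-YPet folds of 3.66 and 2.94 and of 2.84 and 2.83. In AT1G71710 all 3 regions had peaks in every tagged list, with gai-YPet folds between 4.54 and 6.54, and the strongest lay 2366 bp from the nearer edge. In AT5G51560 the strongest region was again the deep one, 888 bp in, with folds of 2.19 and 2.07 in gai-YPet cuc2-1 and 4.08 and 4.18 in gai-YPet. In AT3G07760 it lay 772 bp from an edge, with folds of 3.38 and 2.41 in gai-YPet cuc2-1 and 3.86 and 3.06 in gai-YPet. The strongest region of each of these 4 genes was thus a deep one.

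Within gai-YPet, regions inside genes had median folds of 3.25 and 3.33 in replicates 1 and 2, with ranges of 1.60 to 14.0 and 1.33 to 9.06. Both lowest folds were in AT2G07727, which with AT2G07725, AT2G07728 and AT2G07659 forms a group of 4 regions on chromosome 2. They lie in a part of it known to carry a copy of mitochondrial DNA, whose ends were not determined here. The folds of these 4 were 1.60 to 2.03 and 1.33 to 1.53, those of the other 1902 regions 1.63 to 14.0 and 1.55 to 9.06, and reads of near-identical copies cannot be told apart. Regions outside genes had medians of 3.53 and 3.60. The strength of a region, defined as the mean over the gai-YPet lists of the percentile of its highest peak, had a median of 61.0 inside genes and 65.5 outside. When all regions were cut into 10 equal classes of strength, 25.2% of the strongest class lay inside genes, and between 29.0% and 39.8% of the other classes. The deep regions were not the weak ones: their median folds were 3.61 and 3.60, against 3.18 and 3.23 near an edge. The 35 regions that covered a whole gene had medians of 5.14 and 4.72.

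Summits of the gai-YPet replicates lay a median of 26 bp apart inside genes, and 91.8% lay within 100 bp of each other. The median width was 659.5 bp, against 640 bp outside genes.

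The 12 strongest regions inside genes had peaks in all 4 tagged lists, and 8 of the 12 were deep. The strongest was in AT4G19380, on chromosome 4 from 10570241 to 10572566 and 965 bp from the nearer edge, with folds of 9.50 and 8.55 in gai-YPet cuc2-1 and 14.0 and 9.06 in gai-YPet. CSLA01, a cellulose synthase-like gene, followed with 9.17 and 8.69 in gai-YPet cuc2-1 and 11.2 and 7.31 in gai-YPet, 1409 bp from an edge. AT5G13140 had 10.2 and 5.68 in gai-YPet cuc2-1 and 11.8 and 8.36 in gai-YPet, only 40 bp from an edge. Across the 12 regions, folds ranged from 8.41 to 10.2 and from 5.68 to 8.69 in the gai-YPet cuc2-1 lists and from 9.92 to 14.0 and from 6.33 to 9.06 in the gai-YPet lists.

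The other 9 had varied functions. GRF8, a growth-regulating transcription factor, held a region on chromosome 4 from 12536308 to 12537235, wholly inside the gene and 1050 bp from an edge. Its folds were 10.0 and 7.35 in gai-YPet cuc2-1 and 9.92 and 8.28 in gai-YPet, so the replicates of the genotypes interleaved. The folds of these genotypes also overlapped at the others of the 12 strongest, except at AT1G68862. There they were 8.42 and 6.92 in gai-YPet cuc2-1 and 11.9 and 8.66 in gai-YPet. DFL2, of the GH3 family, had 8.88 and 7.51 in gai-YPet cuc2-1 and 11.9 and 6.33 in gai-YPet. PIP2E, an aquaporin of the plasma membrane, had 8.41 and 7.27 in gai-YPet cuc2-1 and 12.01 and 7.79 in gai-YPet, 1076 bp from an edge. ERF12, of the ethylene response factor family, had 8.51 and 6.33 in gai-YPet cuc2-1 and 11.4 and 7.69 in gai-YPet, 139 bp from an edge. The remaining 5 were in BT4, a scaffold protein with BTB and TAZ domains, in TRM27, and in AT1G25510, AT1G68862 and AT1G79120, with gai-YPet folds of 11.4 to 12.5 in replicate 1 and 7.06 to 8.66 in replicate 2.

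**Figure D2:**
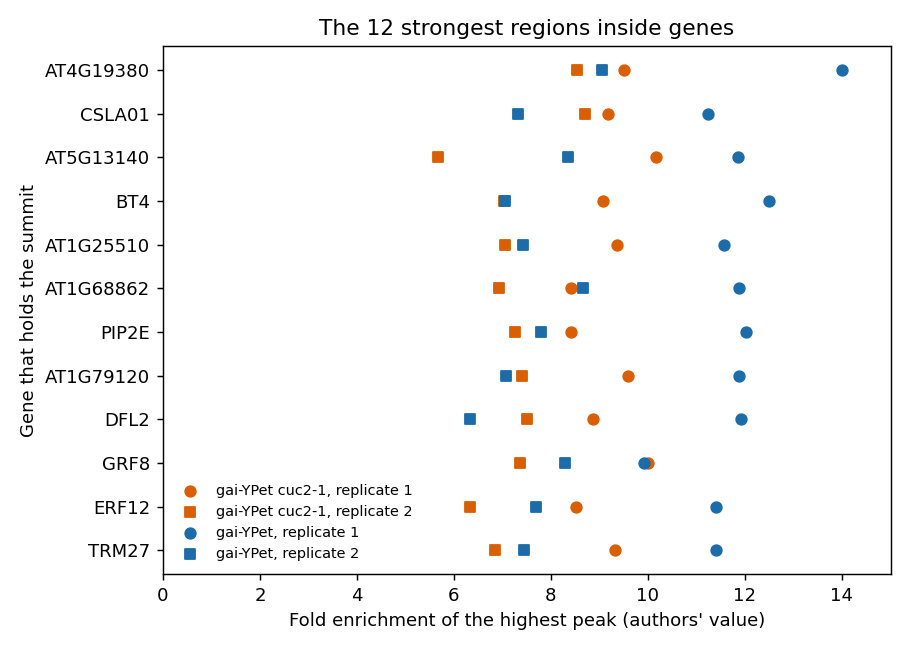
Fold enrichment of the highest peak, the authors' value (horizontal axis), at the 12 strongest regions inside genes (rows, named by host gene), in gai-YPet cuc2-1 (orange) and gai-YPet (blue), circles for replicate 1 and squares for replicate 2. Every row has 4 symbols, and those of replicate 2 lie left of those of replicate 1 in the same genotype.

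The deepest regions lay far from both ends of long genes. GA1, which encodes the first committed enzyme of gibberellin synthesis, held a region 3496 bp from the nearer edge on chromosome 4 from 1240992 to 1241521. Its fold was 2.59 in gai-YPet cuc2-1 replicate 1, with no peak in replicate 2, and 2.98 and 3.29 in gai-YPet. TGA9, a bZIP factor of anther development, had 2.32 in gai-YPet cuc2-1 replicate 1, no peak in replicate 2, and 3.25 and 2.94 in gai-YPet. The strongest of the 6 deepest were in AT5G45650, with 7.04 and 4.17 in gai-YPet cuc2-1 and 7.90 and 6.59 in gai-YPet, and in AT5G22090, with 6.04 and 2.87 in gai-YPet cuc2-1 and 7.17 and 5.54 in gai-YPet. AT4G33150 had a peak in 1 gai-YPet cuc2-1 list and AT5G12440 in neither.

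In the cuc2-1 mutant most regions inside genes still carried a peak in at least 1 of the 2 lists, but fewer had one in both. The mutant lists took no part in choosing the members. In gai-YPet cuc2-1 replicate 1, 1723 of the 1906 regions (90.4%) overlapped a peak, against 90.1% of all nuclear regions, and in replicate 2 it was 932 (48.9%), against 50% of all. At least 1 mutant list had a peak at 1728 regions (90.7%, all nuclear regions 90.3%), and 178 (9.34%, Wilson 95% interval 8.11 to 10.7, counting error only) had none, against 9.71% of all nuclear regions. All these shares lie near the background, and outside genes they were 90%, 50.5% and 90.1%, with 9.90% without a mutant peak. The 2 mutant lists differed from each other far more than regions inside and outside genes did. A peak in both mutant lists, as the rule asked of both gai-YPet lists, was found at 927 regions inside genes (48.6%). The share was 49.8% of all nuclear regions and 50.4% of those outside genes.

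Regions inside genes that lacked a mutant peak were weak. Their gai-YPet strength had a median of 32.4, against 64.5 for those with a peak. Outside genes these medians were much the same, at 32.1 and 69.0. In the weakest class of strength 88 of 205 regions inside genes (42.9%) had no mutant peak, against 51.5% of those outside. In the next class it was 22.7% inside and 26.9% outside, and in the third 9.77% inside and 15.8% outside. From the seventh class upwards no region lacked a mutant peak, inside or outside genes. The list of replicate 2 had a peak at 6.83% of regions inside genes in the weakest class and at 100% in the strongest, and at 2.96% and 100% of regions outside genes. At matched strength, regions inside genes thus lacked any mutant peak somewhat less often than those outside in the weaker classes. In replicate 2 they had a peak somewhat more often from the first to the eighth class, with 79.6% against 72.8% in the seventh. In the ninth it was 99.4% against 100%. These differences were not tested.

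**Figure D3:**
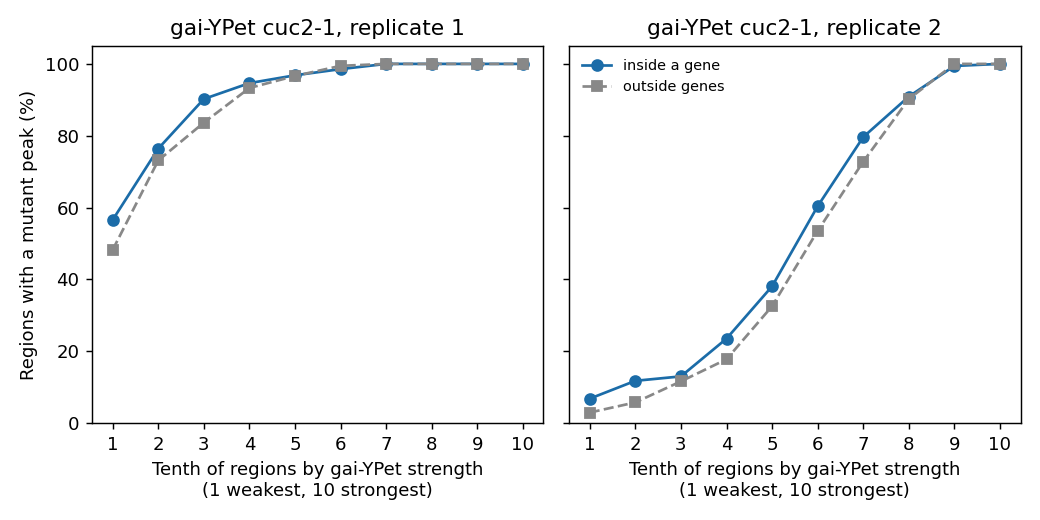
Share of gai-YPet regions that overlapped a peak (vertical axis, %) in gai-YPet cuc2-1 replicate 1 (left) and replicate 2 (right), by class of gai-YPet strength with the weakest on the left (horizontal axis), for regions inside genes (blue circles) and outside genes (grey squares). In replicate 2 the blue line runs from 6.83% to 100% and lies at or somewhat above the grey line in all classes but the ninth.

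Position in the gene went with the same measures. Deep regions had a peak in replicate 2 of gai-YPet cuc2-1 in 54.7% of cases and lacked any mutant peak in 7.17%, against 46.4% and 10.3% near an edge. Their median strength in gai-YPet was 67.9, against 58.7 near an edge, and the part of strength in these shares was not tested.

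Among the regions with no mutant peak, the strongest 8 were still of middling strength. CIPK3, a kinase of calcium signalling, led with gai-YPet folds of 3.40 and 4.09, and the region crossed an edge of the gene with FUS12 close by. ZFHD1, a zinc finger homeodomain gene, had 3.68 and 3.39 at 75 bp from an edge, and LOH2, a ceramide synthase gene, had 3.71 and 2.83 at 1045 bp. MYB12, a regulator of flavonol synthesis, had 3.33 and 3.26 at 1558 bp from an edge, on chromosome 2 from 19477653 to 19478307. AT3G56770, AT4G11300, AT5G57655 and AT2G28080 had folds of 2.99 to 3.31 in replicate 1 and 3.23 to 3.70 in replicate 2. CIPK3 ranked 841 by strength among the 1906, so each stronger region had a mutant peak.

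In the other direction, 1010 of the 3187 nuclear regions of both gai-YPet cuc2-1 lists had their summit inside a gene (31.7%). Only 9 of these (0.891%) touched no gai-YPet peak, against 1.29% of all 3187.

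The lists were also compared by how many of their own peaks had the summit inside a gene, without regard to regions. In gai-YPet cuc2-1 the shares were 32.3% and 31.5% of nuclear peaks, and in gai-YPet they were 31.7% and 39.2%. The mean was 31.9% ± 0.561 in gai-YPet cuc2-1 and 35.4% ± 5.32 in gai-YPet (SD, n = 2 each), a difference of -3.58 percentage points that is smaller than the spread within gai-YPet (exact permutation test, two-sided p = 0.667, smallest possible p 0.333). Without gai-YPet replicate 2, the longest list, the difference was 0.189 percentage points. The strongest 3582 peaks of that list lay inside genes in 32.0% of cases and its weaker peaks in 42.5%, and the part of list length in the difference was not tested. At that length the shares were 30.5% and 31.5% in gai-YPet cuc2-1 and 29.9% and 32.0% in gai-YPet.

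In Ler few peaks lay inside genes. The shares were 31.7% and 39.2% in gai-YPet, against 7.30% (13 of 178 nuclear peaks) and 9.82% (39 of 397) in Ler, without overlap between the genotypes. The mean was 35.4% ± 5.32 in gai-YPet and 8.56% ± 1.78 in Ler (SD, n = 2 each), a difference of 26.9 percentage points (exact permutation test, two-sided p = 0.333, the smallest that 2 lists against 2 allow). Among the strongest 178 peaks of each list the shares were 28.7% and 25.8% in gai-YPet and 7.30% and 5.06% in Ler. Only 5 regions inside genes had been left out because they touched a Ler peak.

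**Figure D4:**
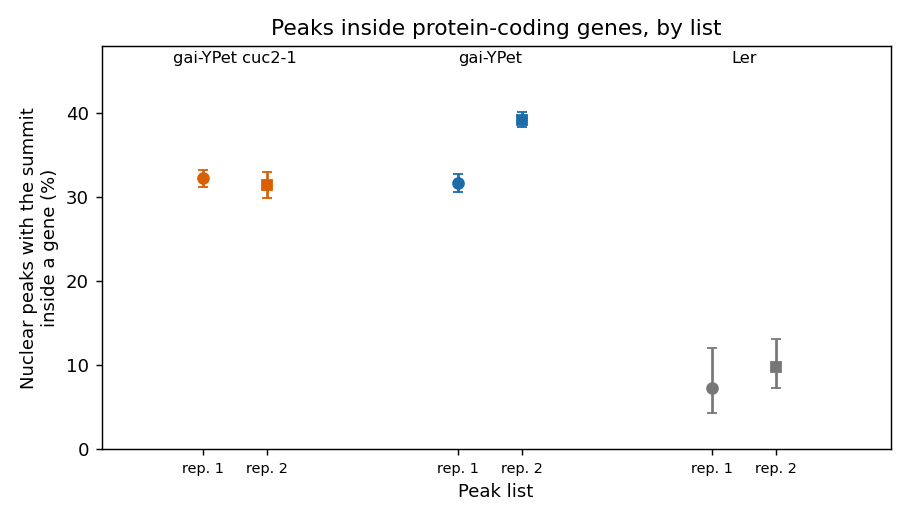
Share of nuclear peaks with the summit inside a protein-coding gene (vertical axis, %) in each of the 6 lists, with Wilson 95% intervals that cover counting error only. Both Ler lists lie below 10%, and all 4 tagged lists lie between 31.5% and 39.2%.

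Lists of genes of hormones, growth, flower development and other functions were looked up among the hosts. Of 521 genes in 20 such lists, other tissues and housekeeping included, 145 (27.8%) held a region, against 6.46% of all nuclear protein-coding genes. This was a description without a test, since gai-YPet peaks chose the members and the lists were drawn up with earlier results of these data known. The 170 regions in these genes had median folds of 3.60 and 3.51, and 60 of them (35.3%) were deep. In gai-YPet cuc2-1, 153 of the 170 had a peak in replicate 1 and 93 (54.7%) in replicate 2, and 16 (9.41%) had none. The shares of all nuclear regions were 90.1%, 50% and 9.71% in the same order, and hold as background for the mutant peaks of each list. The median length of the listed genes ran from 1612 to 3621 bp by list. In most lists, all hormone lists among them, it was above the 2078 bp of all genes. The TCP, wall-loosening, photosynthesis, tapetum and pollen, root, and seed storage lists lay below it. The part of gene length in the shares of hosts was not tested.

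**Figure D5:**
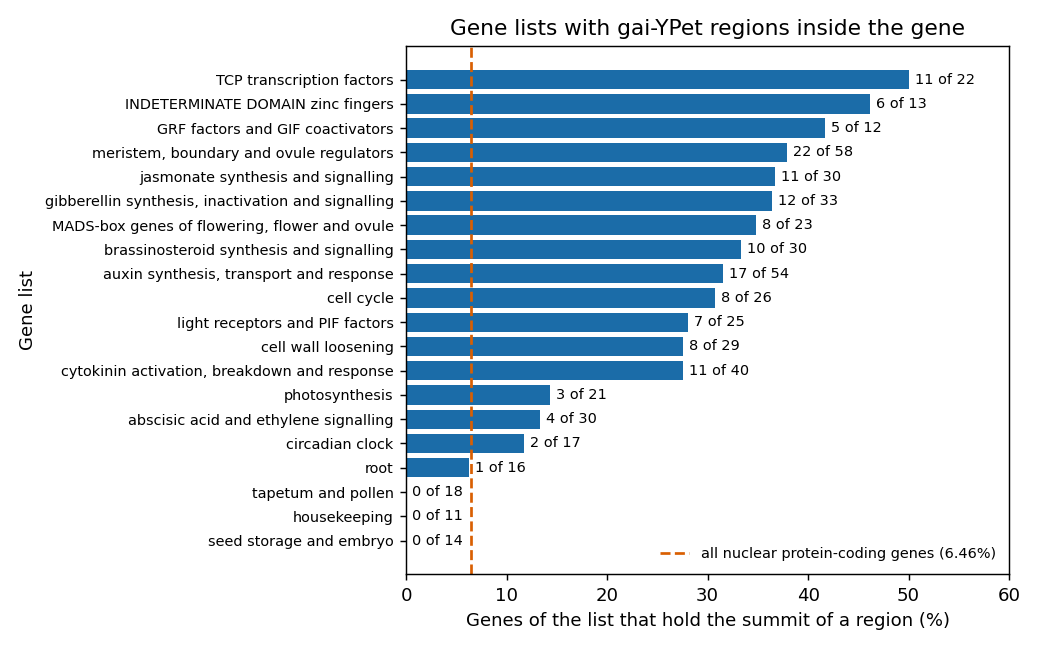
Share of the genes of each list that held the summit of a gai-YPet region (horizontal axis, %), with the number of host genes of the genes in the list at each bar, and the share of all nuclear protein-coding genes (6.46%) as a dashed line. TCP factors reached 50%, and the lists of tapetum and pollen, seed storage and housekeeping genes had no host.

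Genes of gibberellin synthesis, inactivation and signalling held regions in 12 of 33 cases, with 14 regions of which 7 were deep. GA2OX8, which inactivates gibberellin precursors, had the strongest, on chromosome 4 from 11304373 to 11305066 and 2032 bp from the nearer edge, with folds of 8.34 and 5.35 in gai-YPet cuc2-1 and 9.06 and 6.44 in gai-YPet. The next was in GA20OX1, a gibberellin synthesis gene, with 6.58 and 2.66 in gai-YPet cuc2-1 and 7.17 and 6.24 in gai-YPet at 84 bp from an edge. SLY1, the F-box gene that targets DELLA proteins for destruction, was covered whole by its region, with 4.59 and 3.19 in gai-YPet cuc2-1 and 5.94 and 5.84 in gai-YPet. Of the 14 regions, 3 had no peak in the mutant, against 9.71% of all nuclear regions. They were those in GAI, RGL2 and GA2OX6, which are named because of that. The strengths of 31.1 at RGL2 and 25.6 at GA2OX6 lay in the weakest class, where 42.9% of regions inside genes had no mutant peak. The strength of 44.8 at GAI lay in the third class, where that share was 9.77%. At GAI the folds were 1.74 and 1.78, and reads of the transgene, which holds GAI sequence, cannot be told apart from those of the resident gene.

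INDETERMINATE DOMAIN genes, whose zinc finger proteins bind DELLA proteins, were hosts in 6 of the 13 cases matched. Of the 15 symbols of this list 2 found no match, so any region in those genes is not counted or ranked here. IDD5 had folds of 7.17 and 4.52 in gai-YPet cuc2-1 and 10.0 and 8.41 in gai-YPet, 993 bp from an edge and wholly inside the gene. IDD4 had 5.67 and 2.78 in gai-YPet cuc2-1 and 6.98 and 6.41 in gai-YPet, and IDD11 had 5.995 and 3.37 in gai-YPet cuc2-1 and 5.62 and 6.09 in gai-YPet. All 8 regions of the list had a peak in mutant replicate 1, and 5 had one in replicate 2.

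Auxin genes were hosts in 17 of 54 cases, with 22 regions. PIN3, an auxin exporter, had 7.40 and 3.89 in gai-YPet cuc2-1 and 9.13 and 6.27 in gai-YPet, in a region on chromosome 1 from 26744516 to 26745663. IAA3, a repressor of auxin response, had 6.34 and 3.82 in gai-YPet cuc2-1 and 7.04 and 4.89 in gai-YPet at 98 bp from an edge. AUX1, an auxin importer, had 4.66 and 3.45 in gai-YPet cuc2-1 and 5.43 and 5.38 in gai-YPet. The exporter genes PIN3, PIN4 and PIN7, noticed after their values were seen, carried their strongest region at like depths of 1240, 1163 and 1241 bp from the nearer edge, in genes of 3530, 3732 and 3462 bp. All 3 of these regions had a peak in every tagged list.

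Cytokinin genes were hosts in 11 of 40 cases. LOG8, of the family that activates cytokinin, had 8.18 and 6.36 in gai-YPet cuc2-1 and 9.67 and 5.68 in gai-YPet at 62 bp from an edge, and LOG3 had 4.14 and 3.18 in gai-YPet cuc2-1 and 6.18 and 5.34 in gai-YPet at 1099 bp. CKX5, a cytokinin oxidase that degrades the hormone, had 4.73 and 3.66 in gai-YPet cuc2-1 and 5.62 and 3.78 in gai-YPet at 1397 bp from an edge. Brassinosteroid genes were hosts in 10 of 30 cases, and 11 of their 13 regions lay near an edge. CYP90D1, of brassinosteroid synthesis, had 7.02 and 4.81 in gai-YPet cuc2-1 and 9.06 and 7.91 in gai-YPet. BAS1, which inactivates brassinosteroids, had 7.75 and 4.92 in gai-YPet cuc2-1 and 7.62 and 5.75 in gai-YPet, and DWF1, of sterol synthesis, had 5.11 and 3.88 in gai-YPet cuc2-1 and 5.89 and 4.90 in gai-YPet.

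Jasmonate genes were hosts in 11 of 30 cases, and each of their 12 regions had a peak in mutant replicate 1 (90.1% of all nuclear regions) and 3 had one in replicate 2 (50% of all nuclear regions). MYB21, a stamen regulator, had 5.22 and 4.50 in gai-YPet cuc2-1 and 7.66 and 5.96 in gai-YPet, 952 bp from an edge. MYC3, a transcription factor of jasmonate response, had 2.68 and 1.96 in gai-YPet cuc2-1 and 3.80 and 3.60 in gai-YPet, and LOX3, a lipoxygenase of jasmonate synthesis, had 3.41 in 1 mutant list and 3.12 and 3.64 in gai-YPet. Of 30 genes of abscisic acid and ethylene, 4 were hosts (13.3%), all with regions near an edge. These were the abscisic acid genes PYL8, PYL5, ABI2 and PYL6, and no ethylene gene of the list was a host. The abscisic acid receptor gene PYL8 was the strongest, with 6.87 and 3.47 in gai-YPet cuc2-1 and 7.15 and 6.04 in gai-YPet. The other 2 strongest were PYL5 and ABI2, with gai-YPet folds of 2.99 and 3.44 and of 2.48 and 2.94.

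Light receptor and PIF genes were hosts in 7 of 25 cases. PHOT1, a blue light receptor, had 6.11 and 2.96 in gai-YPet cuc2-1 and 6.20 and 5.76 in gai-YPet, 836 bp from an edge. PIF5 and PIF1 belong to a group of growth regulators that DELLA proteins are known to bind. PIF5 had 3.98 and 3.67 in gai-YPet cuc2-1 and 5.98 and 4.76 in gai-YPet, and PIF1 had 5.62 and 3.45 in gai-YPet cuc2-1 and 5.57 and 5.41 in gai-YPet. Both regions crossed an edge of the gene.

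Regulators of meristems, boundaries and ovules formed the longest list, with 22 of 58 genes as hosts, 24 regions and 11 of them deep. ER, a receptor kinase of growth and organ shape whose mutation gives the erecta ecotype its name, had 6.35 and 4.79 in gai-YPet cuc2-1 and 7.65 and 6.94 in gai-YPet. LFY, which specifies floral fate, had 5.85 and 4.27 in gai-YPet cuc2-1 and 7.72 and 6.14 in gai-YPet, 957 bp from an edge on chromosome 5 from 24845377 to 24846384. NGA4, of the style and leaf margin, had 5.81 and 4.32 in gai-YPet cuc2-1 and 5.29 and 5.96 in gai-YPet. All 24 regions had a peak in mutant replicate 1 and 16 in replicate 2. CUC3, a boundary gene related to CUC2 and named for that, held a deep region 1005 bp from an edge, with 3.02 and 2.35 in gai-YPet cuc2-1 and 4.08 and 3.56 in gai-YPet.

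MADS-box genes of flowering, flower and ovule were hosts in 8 of 23 cases, and 3 of their 8 regions had no mutant peak, against 9.71% of all nuclear regions. PI, which specifies petals and stamens, had 3.08 and 2.28 in gai-YPet cuc2-1 and 4.91 and 4.72 in gai-YPet at 78 bp from an edge. AGL18 had 2.72 and 2.15 in gai-YPet cuc2-1 and 4.02 and 2.74 in gai-YPet, and SHP1, of carpels and ovules, had 2.08 in 1 mutant list and 2.53 and 3.44 in gai-YPet. The regions without a mutant peak were in FUL, SOC1 and SHP2, named because of that. Their strengths of 29.1, 23.9 and 22.0 put them in the weakest class, where 42.9% of regions inside genes had no mutant peak. Their gai-YPet folds ranged from 1.74 to 2.47 in replicate 1 and from 2.22 to 2.87 in replicate 2.

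Among the matched genes of each list, TCP factors had the highest share of hosts, 11 of 22 (50%). Of their 12 regions, 11 lay near an edge. TCP7 had 6.39 and 3.29 in gai-YPet cuc2-1 and 6.05 and 5.63 in gai-YPet, and TCP18, which restrains branching, had 5.93 and 3.31 in gai-YPet cuc2-1 and 7.03 and 5.84 in gai-YPet. TCP9 had 4.69 and 5.04 in gai-YPet cuc2-1 and 4.84 and 4.22 in gai-YPet. GRF factors and their GIF coactivators, which promote organ growth, were hosts in 5 of 12 cases. Besides GRF8, GIF1 had 5.34 and 2.59 in gai-YPet cuc2-1 and 6.16 and 5.76 in gai-YPet, and GRF3 had 3.99 and 2.82 in gai-YPet cuc2-1 and 4.53 and 4.70 in gai-YPet. Of the 7 regions of the list, 2 had no mutant peak, against 9.71% of all nuclear regions. They lay in GRF4 (gai-YPet folds of 2.67 and 2.11) and GRF5 (2.41 and 1.85), named because of that. Their strengths of 28.2 and 11.1 put them in the weakest class, where 42.9% of regions inside genes had no mutant peak.

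Cell cycle genes were hosts in 8 of 26 cases, and the hosts were D-type cyclins, which promote division, and KRP inhibitors of cyclin-dependent kinases. KRP4 had 5.49 and 5.37 in gai-YPet cuc2-1 and 10.4 and 8.41 in gai-YPet, with a summit that also lay in CB5-B. CYCD3;2 had 4.97 and 3.31 in gai-YPet cuc2-1 and 8.29 and 5.74 in gai-YPet, and KRP1 had 5.46 and 3.44 in gai-YPet cuc2-1 and 6.78 and 5.79 in gai-YPet. Of wall-loosening genes 8 of 29 were hosts. XTH9 was covered whole by its region, with 8.86 and 5.53 in gai-YPet cuc2-1 and 11.3 and 6.68 in gai-YPet. The expansin genes EXPA6 and EXPA3 carried deep regions at 971 and 938 bp from an edge. EXPA6 had 5.72 and 3.93 in gai-YPet cuc2-1 and 6.28 and 5.74 in gai-YPet, and EXPA3 had 3.71 and 2.29 in gai-YPet cuc2-1 and 4.42 and 4.34 in gai-YPet.

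In lists for other tissues and for general cell functions the share of hosts ranged from 0% to 14.3%, against 6.46% of all genes. There were 0 of 18 tapetum and pollen genes, 0 of 14 seed storage and embryo genes and 0 of 11 housekeeping genes. The root list had 1 of 16 (6.25%), SCR, which also acts outside the root. The clock list had 2 of 17 (11.8%), TCP21 and LHY, and photosynthesis 3 of 21 (14.3%), RBCS3B, LHCB4.1 and LHCB6, both above the share of all genes but on very few genes. RBCS3B has near-identical tandem copies, so the place of its reads is uncertain.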

How the data were processed

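Inflorescences of 3 genotypes were assayed by ChIP-seq in 2 replicates each, giving 6 ChIP and 6 input libraries, and 1 peak list per ChIP library was used. The submitters' processing notes list, without versions, bedtools, MACS2, SAMtools, Bowtie2 and cutadapt, and the build TAIR10, with settings not given in the sources used here. The deposited columns give for each peak the authors' score, its fold (a ratio over background), and p-value and q-value as −log10. Decimal marks of fold and −log10 were damaged in the deposited replicate 2 lists. They were reset to 5 decimals, and the authors' score was then 10 times the truncated −log10 q in every line. Other deposited columns hold peak positions and summit offsets. Read depth is unknown, so list length is no measure of occupancy.

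Overlap meant at least 1 bp. Genes came from a RefSeq table of assembly TAIR10.1, with the assumption that nuclear positions match TAIR10. In all 10 chromosome arms, region density within 200 bp outside a gene edge exceeded that 500 to 999 bp inside. List genes were matched by symbol, synonym or, where these were ambiguous, locus tag, and 12 of 538 symbols found no match. The members and lists were chosen with earlier results of these data known. Named genes were the 12 strongest members, the 8 strongest without a mutant peak, up to 3 host genes per list by strength, genes with 3 members, the 6 farthest from both edges, and 3 on each side of the gene edge; others are marked in the text. Planned promoter and motif searches were not run, because no genome sequence was used here. Shares of peaks inside genes were compared with an exact permutation test over lists. Alternatives tried were the stronger 50% of each list, a reciprocal overlap, lists of equal length, Ler peaks kept, other summits, an inset of 100 bp, other edge distances, each list left out, and pairing by replicate number. The region steps were tested on simulated data. Work was done in Python 3.11.15 with matplotlib 3.10.9, scipy 1.17.1, pandas 2.3.3 and numpy 2.4.6.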

Additional observations from a re-analysis of the deposited data

How the results depend on the processing

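The difference between gai-YPet and Ler in the share of peaks inside genes kept its direction under the 8 alternatives run. It was between 23.1 and 30.6 percentage points when a list was left out and 17.6 with summits at least 100 bp inside the gene, and its p with a replicate block (lists paired by replicate number) was 0.5, with the difference at 26.9. The difference between gai-YPet cuc2-1 and gai-YPet was between -7.34 and 0.189 when a list was left out, changing sign without gai-YPet replicate 2, and its p with a replicate block was 1, at -3.58. The labels give the replicate numbers no shared plants or day, so the lists share only a number. The count of 1906 regions was 1174 with a 50% reciprocal overlap of the replicates and 967 with the stronger 50% of each list, and between 1907 and 4394 when a list was left out. Their share of regions was 31.7%, 30.6% and, with summits at least 100 bp inside, 23.3%, and between 32.1% and 39.3% when a list was left out. The share with a mutant peak was 89.1% with reciprocal overlap, 99.6% in the stronger 50%, 96.2% at equal length and 89.0% where the mutant peak had to cover the summit, and between 48.9% and 90.7% when a list was left out. The share without one was 10.9% with reciprocal overlap, 0.414% in the stronger 50% and 3.75% at equal length, and between 9.32% and 51.1% when a list was left out. The lowest shares with a mutant peak came without gai-YPet cuc2-1 replicate 1 (48.9%) and without gai-YPet replicate 1 (50.1%). Host genes numbered 1124 with reciprocal overlap and 935 in the stronger 50%. The share near an edge was 65.4% in the stronger 50%, 56.2% for 250 bp and 83.6% for 1000 bp. Fewer peaks enter the stricter settings by construction; other causes were not tested. Depth, strand, exons and sequence were not used here, so differences in list length and in sequencing depth cannot be told apart.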

Other observations

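Gene families, some of which share genes with the lists above, also differed in how often they held a region. Families were taken by the prefix of the symbol, chosen after the data were seen, for prefixes with at least 20 genes, and are given with no test beside the 6.46% of all genes. Of TRM genes, whose proteins organise microtubule arrays, 9 of 33 (27.3%) held a region, and of IQD genes, whose proteins bind calmodulin, 8 of 33 (24.2%). CIPK kinases had 5 of 21 (23.8%). TBL genes, of wall polysaccharide acetylation, had 8 of 41 (19.5%). MYB factors had 16 of 115 hosts, WRKY factors 8 of 67 and NAC factors 5 of 79. The EMB genes, named for embryo lethality, had 2 of 160, and 8 of the 49 families had no host, among them UMAMIT transporters (0 of 42).

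Regions found in both gai-YPet cuc2-1 lists were also sorted by gene. Of 3187 nuclear regions, 1010 (31.7%) lay inside genes, and 9 of these (0.891%) touched no gai-YPet peak, against 32 of 2177 (1.47%) outside genes and 1.29% of all. All 9 lay on chromosome 2, in genes such as AT2G07648 and ABCI4. The first and last of them set the ends of a stretch from 3289735 to 3432507. It lies in a part of chromosome 2 known to carry a copy of mitochondrial DNA, whose ends were not determined here. The counts given for the stretch are a description only, since these 9 regions set its ends. The 4 gai-YPet regions inside genes within 50000 bp of this stretch, AT2G07725, AT2G07727, AT2G07728 and AT2G07659, all had a peak in gai-YPet cuc2-1 replicate 1, and 2 of them in replicate 2. The folds of the 9 were 1.49 to 1.95 and 1.52 to 1.76. This stretch held 132 and 28 peaks in gai-YPet cuc2-1, 36 and 9 in gai-YPet and 0 and 1 in Ler, and the mitochondrial genome held 303 and 81 in gai-YPet cuc2-1, 126 and 20 in gai-YPet and 0 and 4 in Ler. Reads of near-identical copies cannot be told apart in these lists, and the part of mitochondrial DNA in these regions was not tested.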
